A study of Mus musculus with 12 samples.

Results

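The circadian clock genes of the liver were followed here through 12 arrays of a study of telomerase loss. The genes were fixed by name: Arntl, Clock, Npas2, Per1, Per2, Per3, Cry1, Nr1d1, Nr1d2 and Dbp. A probe set was taken when the array's annotation gave it one of these symbols, and 9 of the 10 genes were found, each with 1 probe set. They are 9 of the 19938 genes named on the array, which holds 28853 probe sets. The level of Npas2 was not analysed here. Of the 9, Per3 lay below the filter on dim probe sets, so 8 were tested.

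The animals were 12 male C57BL/6J mice in 4 groups of 3: first-generation (G1) mTERT KO, mTERT WT, G1 mTR KO and mTR WT. mTERT is the reverse transcriptase of telomerase and mTR its RNA template; both KO groups are null animals of the first generation, and WT and KO of a set were littermates. Total RNA of the liver of each animal was put on 1 one-colour Affymetrix array. The sample titles number the animals 1 to 3 in each group and name no litter. WT and KO of the same line and number were read as littermates, which gives the 6 litters used below. Age and the time of day at dissection are not given in the sources used here, and the labels do not say what animals of the same number in different lines share. Values are log2 intensities.

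The clock is a transcriptional loop that runs in nearly every cell. CLOCK or NPAS2 pairs with BMAL1, the product of Arntl, and the pair activates genes through E-boxes, among them the Per and Cry genes, Nr1d1, Nr1d2 and Dbp. PER and CRY proteins then repress the activators, while NR1D1 and NR1D2 (REV-ERB alpha and beta) repress Arntl, so that in liver Arntl RNA peaks when Nr1d1, Dbp and Per RNA are low. Dbp encodes a transcription factor that carries the rhythm to genes with D-boxes, and Per1 is also induced by glucocorticoid and other systemic signals. The level of most of these RNAs in a liver therefore depends on the time of day.

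All 8 markers of hepatocytes lay far above background, with a list mean of 12.32 to 12.61 over the arrays. Background was set from 1015 olfactory receptor genes, which the liver is not known to use, as their 95th percentile averaged over arrays, 4.34. By array it was 4.39 to 4.49 in the animals numbered 1 and 4.21 to 4.31 in the others. Counts of values above background given below use the averaged level. Transcripts of 11 pancreas acinar genes (of 13 listed) set 5 arrays apart, mTERT KO 1, mTERT WT 1, mTERT WT 2, mTR KO 1 and mTR WT 2, with means from 6.95 to 11.39; the other 7 gave 3.78 to 3.99. Those of 12 skeletal muscle genes averaged 6.87 in mTERT WT 1, 6.32 in mTERT WT 3 and 3.94 to 4.62 in the rest. In whole liver, fewer cells of a type and less RNA per cell cannot be told apart.

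The promoters of 9 of the 10 genes, all but Per2, were matched by symbol in the RefSeq table of assembly GRCm38.p6. The 250 bases before each of their 13 start sites were searched on both strands for the E-box CACGTG, for AGGTCA, the core of the element bound by REV-ERB and ROR proteins, and for the D-box TTATGTAA. No match overlapped that of another motif. CACGTG was found before 2 of the 13 starts and in 6.02% of all 32851 starts. AGGTCA was found before 3 of the 13, in Per1, Nr1d2 and the last of 3 Clock starts, and in 14% of all. TTATGTAA was found before 1 of the 13, that of Per3, which holds 2 copies, and in 0.819% of all. These matches describe letters and are not shown to be bound sites. For AGGTCA only the core was searched, not the rest of the element. The Clock start with AGGTCA is not printed. The stretches below were picked as examples that carry CACGTG or AGGTCA before genes whose levels are described below, with matches in capitals: Per1 at chr11:69098699-69098948 on the plus strand, Nr1d2 at chr14:18239107-18239356 on the minus strand and Cry1 at chr10:85185055-85185304 on the minus strand.
Per1: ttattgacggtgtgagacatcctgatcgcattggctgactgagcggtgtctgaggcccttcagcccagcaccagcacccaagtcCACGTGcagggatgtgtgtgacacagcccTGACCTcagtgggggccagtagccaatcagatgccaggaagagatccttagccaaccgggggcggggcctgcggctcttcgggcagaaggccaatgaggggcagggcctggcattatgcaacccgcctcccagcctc
Nr1d2: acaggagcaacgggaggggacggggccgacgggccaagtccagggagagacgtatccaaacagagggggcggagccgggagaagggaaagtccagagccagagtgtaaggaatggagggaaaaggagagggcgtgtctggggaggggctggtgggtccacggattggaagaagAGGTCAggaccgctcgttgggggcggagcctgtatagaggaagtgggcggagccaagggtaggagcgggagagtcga
Cry1: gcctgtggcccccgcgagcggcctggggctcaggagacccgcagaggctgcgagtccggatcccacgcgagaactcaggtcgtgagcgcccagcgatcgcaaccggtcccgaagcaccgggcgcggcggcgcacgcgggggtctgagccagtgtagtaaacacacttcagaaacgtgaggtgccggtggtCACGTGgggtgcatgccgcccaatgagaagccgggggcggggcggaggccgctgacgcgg
In Per1 the E-box starts 166 bases and TGACCT, the reverse complement of AGGTCA, 137 bases before the transcript start. In Nr1d2 the AGGTCA starts 77 bases and in Cry1 the E-box 60 bases before it.

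The question of the study was what loss of either part of telomerase does to the liver transcriptome. For the clock genes, no difference between KO and WT exceeded the spread between animals, in either line. By limma with Benjamini-Hochberg adjustment over all 20197 tested probe sets, 0 of 8 clock genes passed in mTERT KO against WT, in mTR KO against WT or in the average of both (adjusted p 1 for each gene), and 0 of 8 had an unadjusted p under 0.05. The share of all tested probe sets called was 0% in each of these comparisons, with 283, 195 and 143 probe sets at an unadjusted p under 0.05. The median log2 difference of the 8 genes was 0.09 for mTERT and −0.05 for mTR, beside 0.01 and −0.01 over all tested probe sets. KO and WT values overlapped for all 9 genes in both lines, beside shares without overlap of 4.33% (mTERT) and 4.48% (mTR) of all tested probe sets. Both comparisons have 3 animals a group, and the intervals given for KO against WT come from the fit of group means, without the litter. They are wide for the genes that vary most. With the litter as a block the SE of the mTERT KO difference was smaller. It was 0.15 against 0.50 for Per1, 0.081 against 0.202 for Clock and 0.538 against 0.758 for Nr1d1. No clock gene passed in that fit either.

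Of the activators, Arntl read 7.45, 7.57 and 7.28 in mTERT KO 1 to 3 and 7.33, 7.24 and 7.41 in mTERT WT 1 to 3. Its mTR KO values were 7.22, 7.60 and 7.67, and those of mTR WT 7.42, 7.64 and 7.71. KO and WT overlapped in both lines. The log2 difference was 0.11 (SE 0.135, 95% interval −0.19 to 0.40) for mTERT and −0.10 (SE 0.135, −0.39 to 0.20) for mTR. By group means the order ran from mTR WT at 7.59 ± 0.149 (SD, n = 3) through mTR KO at 7.49 ± 0.243 and mTERT KO at 7.43 ± 0.148 to mTERT WT at 7.33 ± 0.0835. Neighbours in that order overlapped, while the outermost groups, mTR WT and mTERT WT, did not. Values of those 2 groups did not overlap at 5.95% of all tested probe sets, and Arntl did not pass by limma (difference 0.26, SE 0.135, adjusted p 1.0).

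Clock, the partner of Arntl, read 7.92, 8.40 and 8.33 in mTERT KO and 7.85, 8.48 and 8.30 in mTERT WT. Its mTR KO values were 7.89, 8.33 and 8.39, and those of mTR WT 8.04, 8.44 and 8.46. In each group the animal numbered 1 was the low value, and KO and WT overlapped. The KO difference was 0.0018 (SE 0.202, 95% interval −0.44 to 0.44) for mTERT and −0.11 (SE 0.202, −0.55 to 0.33) for mTR.

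Among the repressors, Per1 read 5.32, 5.05 and 4.25 in mTERT KO and 5.60, 5.22 and 4.09 in mTERT WT. For mTR KO the values were 5.97, 4.76 and 4.41, and for mTR WT 6.04, 4.58 and 5.10. The animals numbered 1 were highest in all 4 groups, and both animals of mTERT litter 3 lay below background. The KO difference was −0.10 (SE 0.505, 95% interval −1.20 to 1.009) for mTERT and −0.20 (SE 0.505, −1.30 to 0.91) for mTR.

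Cry1, whose protein represses CLOCK and BMAL1 with the PER proteins, read 6.59, 5.90 and 5.64 in mTERT KO and 6.17, 5.96 and 5.52 in mTERT WT. For mTR KO the values were 6.13, 6.74 and 6.44, and for mTR WT 6.66, 6.08 and 6.21. Groups overlapped within each line, with differences of 0.16 (SE 0.261, 95% interval −0.41 to 0.73) and 0.12 (SE 0.261, −0.45 to 0.69). Per2 and Per3, which act beside Per1, stayed near the floor of the array. Per2 ranged from 4.14 to 4.49 and exceeded the background level in 6 of 12 arrays; Per3 ranged from 3.61 to 4.04 and exceeded it in none, so no fold is given for Per3. The KO differences of Per2 were 0.08 (SE 0.108) and −0.0081 (SE 0.108).

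Nr1d1, the nuclear receptor gene that represses Arntl, varied more between animals than any other of the 9 genes. It read 7.08, 6.12 and 7.80 in mTERT KO and 4.93, 6.34 and 8.28 in mTERT WT. The mTR KO animals gave 7.30, 5.64 and 5.55, and the mTR WT animals 5.68, 5.73 and 6.79. Its range of 3.34 log2 units was wider than that of 99.6% of tested probe sets; Per1, at 1.95, was wider than 98.5%, Nr1d2, at 1.24, than 94.8%, and Cry1, at 1.22, than 94.7%. Arntl, at 0.49, was wider than 39.9% and Clock, at 0.63, than 63.6%. The KO difference of Nr1d1 was 0.49 (SE 0.758, 95% interval −1.17 to 2.15) for mTERT and 0.10 (SE 0.758, −1.56 to 1.76) for mTR.

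By litter, Nr1d1 did not move one way with genotype. KO exceeded the WT littermate by 2.15 in mTERT litter 1 and by 1.62 in mTR litter 1. In the other 4 litters KO was lower, by −0.21 and −0.47 in mTERT litters 2 and 3 and by −0.083 and −1.24 in mTR litters 2 and 3. Without the 4 animals numbered 1, the KO difference was −0.34 (SE 0.659) for mTERT and −0.66 (SE 0.659) for mTR, so its sign turned without those animals. Whether the effect of genotype differs by number was not tested. None of the 9 genes had the same sign of KO minus WT in all 6 litters, which 2.2% of tested probe sets had.

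Nr1d2, the paralogue of Nr1d1, read 6.51, 7.02 and 7.04 in mTERT KO and 5.83, 7.07 and 6.98 in mTERT WT. The mTR KO animals gave 6.35, 6.30 and 6.18, and the mTR WT animals 6.01, 6.63 and 6.88. KO minus WT was positive in both litters numbered 1, at 0.68 and 0.34, and ran from −0.70 to 0.061 in the others, so the groups overlapped. The KO difference was 0.23 (SE 0.31, 95% interval −0.45 to 0.91) for mTERT and −0.23 (SE 0.31, −0.91 to 0.45) for mTR. Dbp, the output factor, ranged from 3.86 to 4.46 and exceeded background in 2 of 12 arrays, mTERT KO 3 and mTERT WT 2; its KO differences were 0.029 (SE 0.159) and 0.0047 (SE 0.159).

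**Figure D1:**
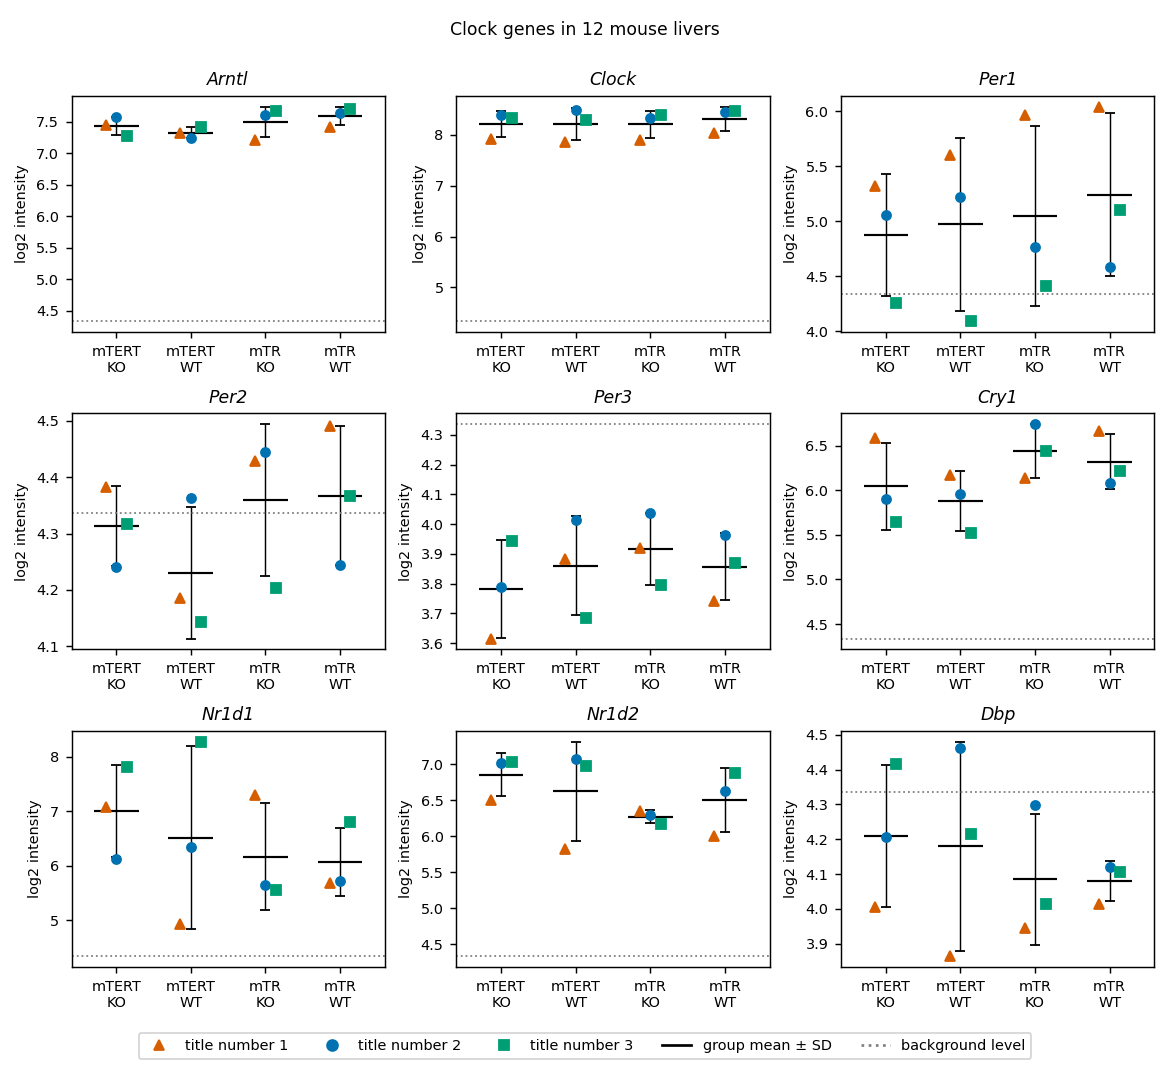
Log2 intensity of the 9 clock genes (y axis, own scale in each panel) in the 4 groups (x axis); each point is an animal, its shape and colour give the title number, bars are the group mean ± SD (n = 3) and the dotted line is the background level of 4.34. Triangles, the animals numbered 1, sit lowest in every group for Clock and highest in every group for Per1, while Per3 lies below the dotted line throughout.

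**Figure D2:**
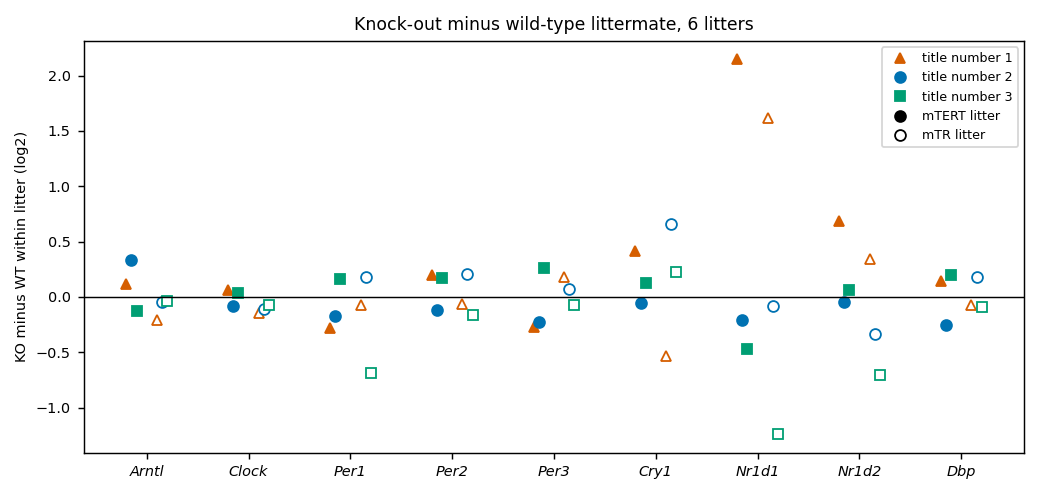
KO minus WT littermate in log2 units (y axis) for each clock gene (x axis); filled points are mTERT litters, open points mTR litters, and shape and colour give the title number. Nr1d1 spreads from −1.24 to 2.15, with both litters numbered 1 above 0 and the other 4 below.

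The difference between the lines in the KO effect was tested directly. By limma 0 of 8 clock genes passed (adjusted p 1.0 for each, 0% of all tested probe sets called), with none at an unadjusted p under 0.05. The estimates were below 0 for 8 of 8 genes, from −0.024 for Dbp to −0.46 for Nr1d2, beside 11187 of 20197 tested probe sets below 0. In mTR WT against mTERT WT, 0 of 8 passed (0% of all called), with Arntl at an unadjusted p of 0.0765 and Cry1, 0.44 higher (SE 0.261), at 0.119.

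Within groups some clock genes parted by the number of the animal, as did many other probe sets. Against animals numbered 2 and 3, those numbered 1 had lower Clock, higher Per1, lower Nr1d2 and lower Dbp: limma, with the group means in the fit, called 4 of 8 genes. This has to be read against the background of the comparison, in which 38.8% of all tested probe sets passed (17.5% higher, 21.3% lower). The 4 of 8 clock genes called are near that share. The fit counts littermates, which share a number, as separate animals. Over litter means, given below, 3 of the 4 calls were kept. The median absolute difference was 0.31 for the 8 clock genes and 0.17 over all tested probe sets.

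Clock read 7.85 to 8.04 in the 4 animals numbered 1 (median 7.90) and 8.30 to 8.48 in the other 8 (median 8.39). The groups did not overlap. The log2 difference was −0.47 (SE 0.0594, adjusted p 0.000169 by limma), 1.38-fold lower, and it passed in each alternative tried. Per1 read 5.32 to 6.04 in animals numbered 1 (median 5.78) and 4.09 to 5.22 in the other 8 (median 4.67), again without overlap. It was 1.05 higher (SE 0.188, adjusted p 0.00144 by limma), 2.07-fold, and passed in each alternative; 6 of the 8 lower values were above background. Values did not overlap in 2 of the 8 tested clock genes, beside 23% of all tested probe sets.

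Nr1d2 read 5.83 to 6.51 in animals numbered 1 (median 6.18) and 6.18 to 7.07 in the others (median 6.93), with overlap through mTR KO 2 and mTR KO 3. The difference was −0.59 (SE 0.156, adjusted p 0.0125 by limma). It did not pass without mTERT WT 1 (−0.39, adjusted p 0.0612), without mTR WT 1 (−0.53, adjusted p 0.0526) or with the pancreas and muscle means as covariates (−0.63, adjusted p 0.0733). Dbp read 3.86 to 4.01 in animals numbered 1 and 4.01 to 4.46 in the others, so all 4 animals numbered 1 and 6 of the other 8 were below background and no fold is read from it. Its difference of −0.27 (SE 0.0846, adjusted p 0.0259 by limma) did not pass over the 6 litter means (adjusted p 0.0562), with the covariates (−0.12, adjusted p 0.581), or without mTERT KO 1, mTERT WT 1, mTR KO 1 or mTR KO 2 (adjusted p 0.0807, 0.122, 0.0527 and 0.0541).

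The other tested clock genes did not pass in this comparison with all arrays. Arntl was 0.16 lower in animals numbered 1 (−0.16, SE 0.0887, 95% interval −0.36 to 0.033), with an adjusted p of 0.171 by limma. Without mTERT KO 3 it passed (−0.21, adjusted p 0.0482), and over the 12 fits that leave out 1 array its difference ran from −0.222 to −0.077. Cry1 differed by 0.33 (SE 0.162, −0.030 to 0.68, adjusted p 0.133 by limma), and by 0.59 without mTR KO 1, where it passed (adjusted p 0.00274). Nr1d1 differed by −0.28 (SE 0.489, −1.36 to 0.79, adjusted p 0.675 by limma) and Per2 by 0.082 (SE 0.0736). Between animals numbered 2 and those numbered 3, limma called 0 of 8 clock genes and 0% of all tested probe sets, with 1406 probe sets and no clock gene at an unadjusted p under 0.05. The estimates furthest from 0 were −1.15 for Nr1d1 (SE 0.564, unadjusted p 0.0666) and 0.44 for Per1 (SE 0.217, unadjusted p 0.067), each with an adjusted p of 0.704 by limma.

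Pancreas transcripts moved with these values in part: the list mean was 9.94, 7.48 and 11.39 in 3 of the 4 animals numbered 1 and 3.86 in the fourth, mTR WT 1. In mTR WT 1 Clock read 8.04 and Per1 6.04, outside the range of the animals numbered 2 and 3 for both genes. With the pancreas and muscle means as covariates Clock differed by −0.40 (SE 0.103, adjusted p 0.0361 by limma) and Per1 by 1.49 (SE 0.241, adjusted p 0.0066), and 2 of the 4 calls were kept. Pancreas transcripts and number 1 went together in 3 of these 4 animals, so the part of the pancreas transcripts was not tested apart from the number. Over the 6 litter means, which treat littermates as 1 value, Clock (adjusted p 0.00721), Per1 (0.0148) and Nr1d2 (0.018) passed by limma. The higher background of the animals numbered 1 moves the same way as Per1 and against Clock and Nr1d2; its part in the result was not tested.

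The number 1 shift was also compared between the lines. By limma 0 of 8 clock genes differed (0.0347% of all tested probe sets called), with Arntl at the only unadjusted p under 0.05 (0.0472, adjusted p 0.683). The intervals are wide for Nr1d1, at a difference of 1.69 (SE 0.806, 95% interval −0.11 to 3.496), and for Cry1, at −0.60 (SE 0.28, −1.22 to 0.029).

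**Figure D3:**
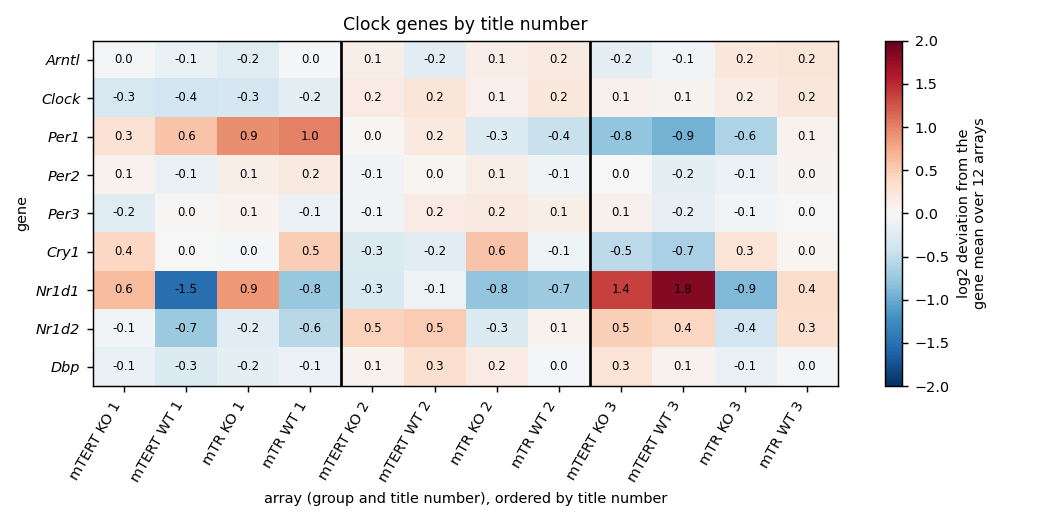
Log2 deviation of each clock gene (rows) from its mean over 12 arrays, in each array (columns, ordered by title number, with black lines between numbers); the colour scale runs from −2 to 2. Clock is below its mean in all 4 arrays numbered 1 and above it in the other 8, and Nr1d1 is highest in the KO and WT animals of mTERT litter 3.

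The spread between litters within a line was tested by a limma F test, chosen after the values were seen. It called 2 of 8 clock genes, a share near the 24.7% of all tested probe sets. Per1 (adjusted p 0.000935) had mTERT litter means of 5.46, 5.14 and 4.17 and mTR litter means of 6.01, 4.67 and 4.76, with a median gap between littermates of 0.17. Clock (adjusted p 0.00489) had mTERT litter means of 7.89, 8.44 and 8.31 and mTR litter means of 7.97, 8.39 and 8.43. With the pancreas and muscle means as covariates Clock did not pass (adjusted p 0.219), while Cry1 (0.0337) and Nr1d1 (0.0497) did. Nr1d1 had a litter mean of 8.04 in mTERT litter 3 and 5.68 to 6.49 in the other 5 (adjusted p 0.147), with a gap between littermates of up to 2.15. Markers of Kupffer cells, the macrophages of the liver, moved with the high Nr1d1 of mTERT litter 3. The mean of the list, 6 of 6 genes found, was 7.85 in both animals of that litter and 6.78 to 7.42 in the other 10. Of these genes 5 were highest in those 2 arrays, among them the scavenger receptor gene Marco at 6.52 and 6.56 against 4.21 to 5.30. The remaining gene, Clec4f, was not, at 8.04 and 8.05 against 7.55 to 8.67. The share of all tested probe sets highest in those 2 arrays was not computed. The part of the Kupffer cell markers in the result was not tested.

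In the known daily cycle Arntl runs against Nr1d1, Dbp and the Per genes, and the E-box targets peak one after another, so that a pair of them need not share a direction at a given hour. Deviations were taken from each gene's mean over the 12 arrays. Arntl and Nr1d1 deviated in opposite directions in 8 of 12 arrays, as did Arntl and Per1. Clock and Per1 were opposite in 9 of 12. Clock, however, deviated the same way as the E-box targets Nr1d2 in 10 of 12 arrays and Dbp in 9 of 12. Among the targets, Nr1d2 and Dbp shared a direction in 9 of 12 arrays, Nr1d1 and Nr1d2 in 7, Nr1d1 and Dbp in 6, Per1 and Nr1d1 in 6, and Per1 and Dbp in 4. Cry1 and Nr1d2 were opposite in 10 of 12 arrays and in 6 of 6 litter means. Dbp exceeded background in 2 of 12 arrays, so the counts with Dbp rest mostly on values near the floor. Arrays of a litter are not independent and share numbers, so all these counts are a description.

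In the comparison of animals numbered 1 with the others, the called E-box targets lay on both sides of 0: Per1 was higher, Nr1d2 and Dbp were lower, and Nr1d1, Cry1 and Per2 did not pass with all arrays. Cry1 was called, as higher, without mTR KO 1 (0.59, adjusted p 0.00274 by limma). Of the activators, Clock was lower, and Arntl was called without mTERT KO 3 but not with all arrays. With 12 arrays, no time of dissection and Dbp, Per2 and Per3 at the floor, a phase was not assigned to any animal.

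The genes most alike to Arntl over the 12 arrays, after removal of group means, were Mcl1, a survival factor gene (r = 0.952), Sqle, an enzyme gene of cholesterol synthesis (r = 0.945), Nol7 (r = 0.931) and Dohh (r = 0.929). The most opposed were Nanp (r = −0.966), Trim32 (r = −0.955), Rnase2b (r = −0.935) and Krt222 (r = −0.92). They are the extremes of 13552 genes over arrays that share litters and numbers, and are given as a description.

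Most further genes of the clock did not pass in the number 1 comparison. Of 14 listed, 12 had a probe set and 11 were tested; limma called 2 higher and 0 lower, beside 38.8% of all tested probe sets. Nfil3, which encodes the repressor that competes with DBP for D-boxes, read 8.30 to 8.62 in animals numbered 1 and 7.504 to 8.07 in the others, without overlap. It was 0.70 higher (SE 0.0985, adjusted p 0.000321 by limma). Ciart, a repressor gene of the loop, was 0.31 higher (SE 0.0929, adjusted p 0.0217 by limma), at 3.97 to 4.41 against 3.74 to 4.06. Only 2 of its 12 values exceeded the averaged background, 4.37 in mTERT WT 1 and 4.41 in mTR KO 1. Both lay below the background of their own array, 4.48 and 4.49. The higher background of the animals numbered 1 moves the same way as Ciart, and its part was not tested. Ciart did not pass without mTERT WT 1, without mTR KO 1 or with the covariates.

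**Figure D4:**
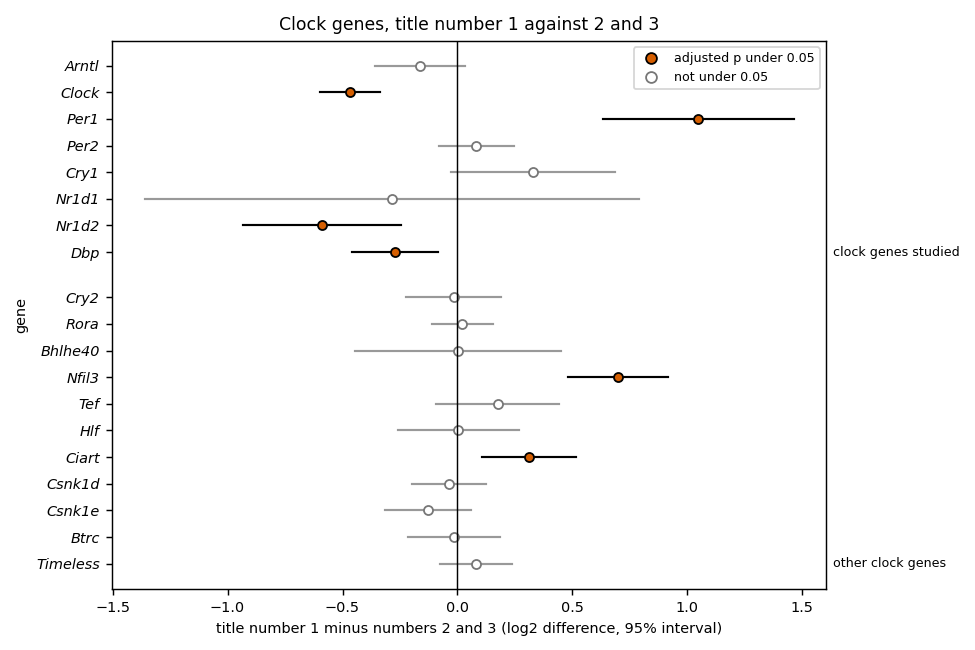
Log2 difference of animals numbered 1 against those numbered 2 and 3 (x axis) for the 8 tested clock genes and 11 further clock genes (y axis); points are limma estimates, lines 95% intervals, and filled points passed at an adjusted p under 0.05. Per1, Nfil3 and Ciart lie to the right, Clock, Nr1d2 and Dbp to the left, and Nr1d1 has the widest interval, −1.36 to 0.79.

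Liver genes known to follow the clock went in both directions. Of 11 tested, limma called 4 higher and 3 lower in animals numbered 1, beside 17.5% higher and 21.3% lower of all tested probe sets. The higher ones were Lpin1, a lipid phosphatase gene, by 1.61 (SE 0.377, adjusted p 0.00641), Alas1, the first enzyme gene of heme synthesis, by 0.84 (SE 0.17, adjusted p 0.00283), the ubiquitin protease gene Usp2 by 0.79 (SE 0.137, adjusted p 0.00118) and the lipase gene Pnpla2 by 0.44 (SE 0.0955, adjusted p 0.00447). The lower ones were Cyp7a1, which makes bile acids from cholesterol, by −0.98 (SE 0.13, adjusted p 0.00022), Nampt, an enzyme gene of NAD synthesis, by −0.79 (SE 0.0991, adjusted p 0.000152), and the cell cycle kinase gene Wee1 by −0.50 (SE 0.155, adjusted p 0.0254). Nampt read 7.45 to 7.80 against 8.23 to 8.72, without overlap, while Lpin1 overlapped at 10.17 to 10.63 against 7.62 to 10.32. Usp2 read 4.88 to 5.35 against 3.75 to 4.70, and 3 of the 8 lower values were above background, so its fold is not well measured. With the pancreas and muscle covariates 4 of these genes did not pass by limma. Wee1 was then at −0.14 (adjusted p 0.747) and Alas1 at 0.67 (0.157), closer to 0 than without them, while Lpin1 at 1.71 (0.127) and Pnpla2 at 0.51 (0.0807) were not. Wee1 also missed in 3 of 12 fits without a single array.

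Genes induced by glucocorticoid were the list with the most uniform direction, with 8 of 8 tested above 0, beside 9290 of 20197 tested probe sets. By limma 6 were called higher and 0 lower, beside 17.5% higher and 21.3% lower of all tested probe sets. The median was 1.16, beside −0.0233 over all tested probe sets. The lists were chosen with earlier results of these data known, so the ranking of the lists by direction is a description. Tat, at 0.30 (SE 0.111, adjusted p 0.0538 by limma), and Sgk1, at 0.0086 (SE 0.116, adjusted p 0.96), did not pass. Whether glucocorticoid had a part in these values or in those of Per1 was not tested. Zbtb16, a zinc finger gene, read 7.64 to 8.75 in animals numbered 1 and 5.80 to 6.98 in the others, 2.12 higher (SE 0.259, adjusted p 0.000129). Fkbp5, the chaperone gene used as a reporter of the glucocorticoid receptor, was 1.09 higher (SE 0.234, adjusted p 0.00392), at 7.19 to 8.06 against 5.65 to 7.48, and Dusp1, a phosphatase gene, was 1.51 higher (SE 0.298, adjusted p 0.00253). The metallothionein genes Mt1 and Mt2 and the leucine zipper gene Tsc22d3 were higher by 1.23, 1.58 and 0.57 (adjusted p 0.0274, 0.0411 and 0.0361 by limma), but these 3 did not pass with the covariates or with the trend and robust prior, nor in some fits without a single array. Without mTERT WT 1, Mt2 differed by 0.848. With the covariates Dusp1 differed by 0.92 and did not pass (adjusted p 0.233 by limma).

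Genes that follow body temperature, fasting or feeding were called in shares near the 38.8% of all tested probe sets, 2 of 6, 2 of 6 and 3 of 7. Of 6 tested temperature genes, limma called the cold-inducible RNA-binding gene Cirbp lower, by −0.56 (SE 0.0899, adjusted p 0.000705), and the chaperone gene Dnajb1 higher, by 0.47 (SE 0.0703, adjusted p 0.000497). Cirbp read 5.27 to 5.64 in animals numbered 1 and 5.68 to 6.38 in the others, without overlap, and did not pass with the covariates, where it differed by −0.49 (adjusted p 0.0802 by limma). Of 6 fasting genes 1 was called higher, Pck1 of gluconeogenesis at 0.57 (SE 0.148, adjusted p 0.0114), and 1 lower, G6pc at −0.28 (SE 0.0998, adjusted p 0.0473). Of 7 feeding genes 2 were called higher, the lipogenic genes Thrsp at 0.79 (SE 0.166, adjusted p 0.0036) and Fasn at 0.41 (SE 0.14, adjusted p 0.0393), and 1 lower, the elongase gene Elovl6 at −0.33 (SE 0.11, adjusted p 0.0362). G6pc, Fasn and Elovl6 lost the call in 10, 7 and 6 of the 12 fits that leave out 1 array. Fasn also did not pass by limma under median centring (adjusted p 0.0536) or with the trend and robust prior (0.0708). Elovl6 did not pass under quantile normalization (adjusted p 0.058 by limma). With the covariates 4 of the called fasting and feeding genes did not pass by limma: Pck1 at 0.76 (adjusted p 0.0771) and Thrsp at 0.72 (0.0518), Elovl6 at −0.19 (0.458), and G6pc, which changed sign, at 0.0253 (0.921). Over these 5 lists and the further clock genes, 22 genes were called; 8 were still called with the covariates and 18 over litter means. The 4 that lost the call over litter means were Tsc22d3, Mt2, Pck1 and G6pc (adjusted p 0.118, 0.0521, 0.0619 and 0.111 by limma).

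**Figure D5:**
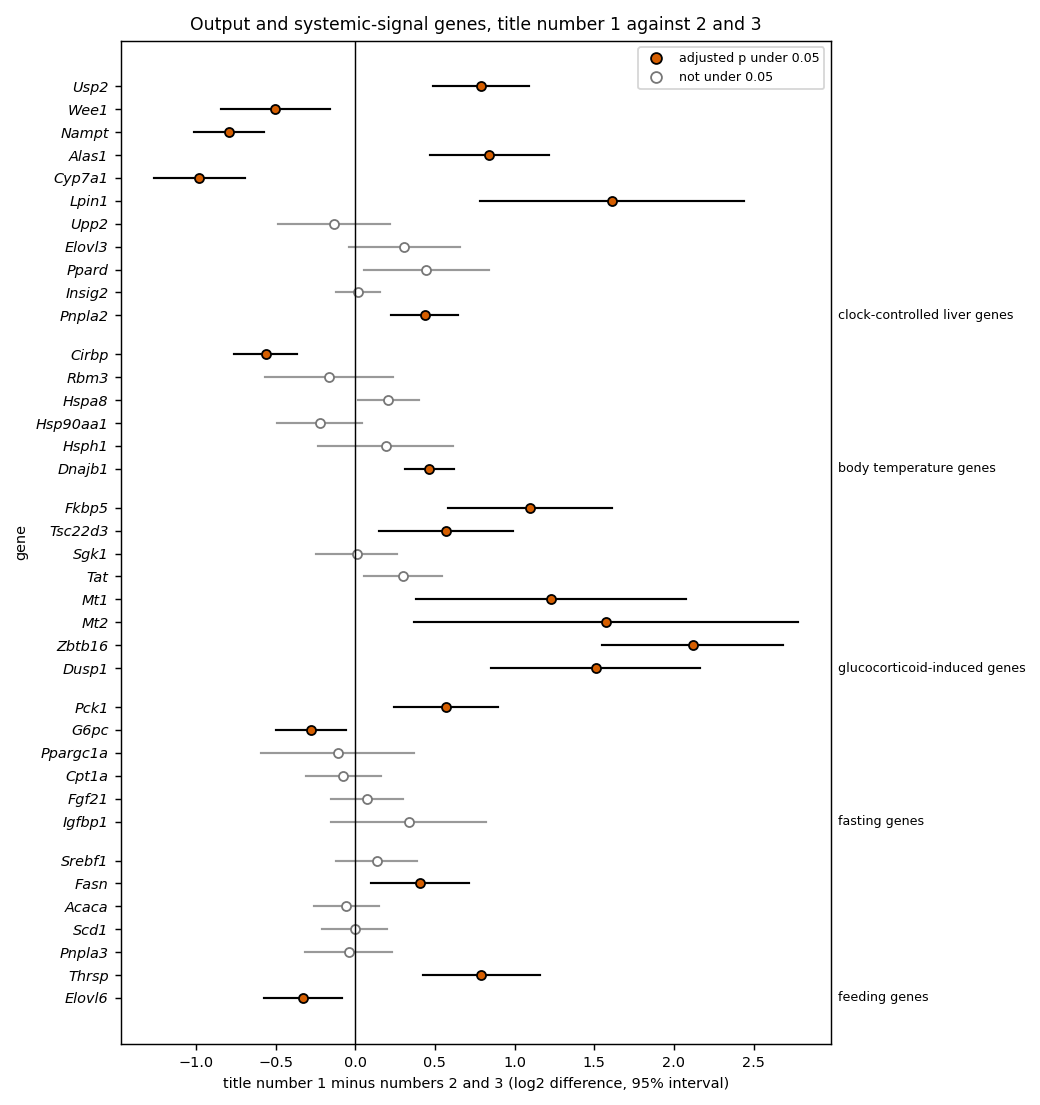
Log2 difference of animals numbered 1 against those numbered 2 and 3 (x axis) for clock-controlled, temperature, glucocorticoid-induced, fasting and feeding genes (y axis); points are limma estimates, lines 95% intervals, and filled points passed at an adjusted p under 0.05. The glucocorticoid-induced genes lie at or right of 0, up to 2.12 for Zbtb16, while the other 4 lists hold called genes on both sides.

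In the KO comparisons none of these lists held a called gene. Over the 8 glucocorticoid-induced genes the median KO difference was −0.09 for mTERT and 0.16 for mTR. Over the 11 clock-controlled liver genes it was 0.02 and 0.04.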

How the data were processed

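RNA from 12 mouse livers was measured on 1 Affymetrix array per animal. The authors deposited the values as log2 intensities (2.62 to 13.83). Per the submitters' processing notes, the tools were PLIER, GCOS 1.4 and Affymetrix Expression Console; their roles are not given in the sources used here. From the range the logarithm was taken to be of base 2; how arrays were normalized is unknown. Array medians were 4.37 to 4.43, and the number of arrays limits the precision.

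Of 28853 probe sets, 21789 had 1 gene symbol; the probe set with the highest mean stood for a gene. limma 3.58.1 under R 4.3.3 (lmFit, eBayes, two-sided, Benjamini-Hochberg) was run on the 20197 probe sets whose mean reached the 30th percentile of all probe sets (3.90), at a threshold of 0.05: 4 group means for genotype; group means and title number for the number; group means and litter for the difference of the number shift between lines. Fits were tested on simulated data. p-values measure the spread between these animals. In the fit of the number, littermates count as separate animals, except over litter means.

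The series text says that WT and KO of a set were littermates, and the title number was read as the set. With group means removed, WT and KO of the same number correlated at 0.692, 0.135 and 0.623 (mTERT) and 0.458, 0.151 and 0.552 (mTR); KO 2 correlated more with WT 3, at 0.416 and 0.464. The litter entered as a block in an alternative.

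Members and lists were chosen with earlier results of these data known. Named were the members, list genes that passed or had the smallest p in the number 1 comparison, and the 4 genes most alike and most opposed to Arntl. The F test over litters was chosen after the values were seen. The alternatives tried were quantile normalization, median centring, no filter or the 50th percentile, trend and robust eBayes, the groups of a comparison alone, blocks, covariates, litter means, and leaving out arrays.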

Additional observations from a re-analysis of the deposited data

How the results depend on the processing

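Counts of called probe sets (limma, adjusted p under 0.05) moved as follows. Without the 5 arrays with pancreas transcripts, which leaves mTERT WT 3 as the lone mTERT WT array, assumed to vary like the other groups, 72 probe sets were called for mTERT KO, 36 for the average KO effect and 38 for the difference of the KO effects, against 0 in each. Without the animals numbered 1, 1 was called in each of mTERT KO, mTR KO and the average. With pancreas and muscle means as covariates, 2308 were called for number 1 against 7833, with 2 clock genes against 4, and 1216 in the litter F test against 4979. For the number 1 shift between lines, 7 became 12 under quantile normalization, 12 under median centring, 11 with no filter, 1 at the 50th percentile, 41 with trend and robust eBayes, 31 with the covariates and 0 over litter means with numbers 2 and 3 pooled, an alternative added after the data were seen, where no clock gene was called (adjusted p 1 for each). Leaving out 1 array gave 0 to 41 calls for mTERT KO, 0 to 28 for the average, 0 to 30 for the difference of KO effects and 0 to 42 for mTR WT against mTERT WT, each highest without mTERT WT 2. The mTERT WT arrays then left, mTERT WT 1 and mTERT WT 3, had the highest skeletal muscle means, 6.87 and 6.32, against 3.94 to 4.62 in the rest. The lone mTERT WT array of the fit without pancreas arrays, mTERT WT 3, is among them. The part of muscle transcripts in these counts was not tested. It gave 5918 to 7577 for number 1 with 2 to 5 clock genes, 2 to 100 for the shift between lines, and 2881 to 5050 for the litter F test with 2 to 4 clock genes. No clock gene was called in a KO or WT comparison under any alternative. With the litter as a replicate block, 0 probe sets were called in the 4 KO comparisons, and the paired fit changed no call there; the title number as a replicate block left mTR WT against mTERT WT at 0.

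Of 673 log2 differences of named genes under alternatives other than leaving out 1 array, 41 changed sign, and none of these was called after it. For mTERT KO, quantile normalization gave −0.0134 for Clock; the covariates gave −0.42 for Clock, 0.16 for Per1, −0.43 for Nr1d2 and −0.34 for Dbp; without pancreas arrays Per1 was at 0.56 and Nr1d1 at −1.31; without number 1 Clock was at −0.028, Nr1d1 at −0.34 and Dbp at −0.0271. For mTR KO, Dbp was at −0.018 under quantile normalization and −0.00383 under centring; without pancreas arrays Arntl was at 0.0685, Clock at 0.11 and Nr1d1 at −0.64; without number 1 Per2 was at 0.0192 and Nr1d1 at −0.66. For the average, Arntl was at −0.000418 under quantile normalization; with covariates Per2 was at −0.00873, Nr1d2 at −0.31 and Dbp at −0.145; without pancreas arrays Clock was at 0.0864, Nr1d1 at −0.98 and Nr1d2 at −0.0767; without number 1 Nr1d1 was at −0.50 and Nr1d2 at −0.26. For the difference of KO effects, Cry1 was at 0.0153 under quantile normalization; with covariates Clock was at 0.38, Nr1d2 at 0.24 and Dbp at 0.38; without pancreas arrays Arntl was at 0.0524, Clock at 0.0447 and Nr1d1 at 0.67; without number 1 Cry1 was at 0.41 and Dbp at 0.0697. With covariates Clock was at −0.40 for mTR WT against mTERT WT, G6pc at 0.0253 for number 1, Arntl at 0.087 for number 2 against 3, and, for the shift between lines, Clock at −0.0304, Per2 at −0.16 and Dbp at −0.12. The cause was not tested.

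Differences of some gene and comparison pairs, uncalled with all arrays, changed sign when 1 array was left out. For mTERT KO they ran for Clock from −0.177 to 0.151, Per1 from −0.536 to 0.218, Cry1 from −0.11 to 0.363, Nr1d1 from −0.306 to 1.37, Nr1d2 from −0.166 to 0.454 and Dbp from −0.129 to 0.169. For mTR KO they ran for Arntl from −0.183 to 0.0427, Clock from −0.248 to 0.045, Per1 from −0.656 to 0.205, Per2 from −0.0701 to 0.0697, Cry1 from −0.0348 to 0.289, Nr1d1 from −0.469 to 0.461 and Dbp from −0.102 to 0.0753. For the average KO effect they ran for Arntl from −0.0387 to 0.074, Clock from −0.144 to 0.0234, Per1 from −0.376 to 0.0542, Nr1d1 from −0.104 to 0.732, Nr1d2 from −0.199 to 0.111 and Dbp from −0.0622 to 0.087. For the difference of KO effects they ran for Clock from −0.262 to 0.0662, Per1 from −0.56 to 0.341, Cry1 from −0.246 to 0.227, Nr1d1 from −1.27 to 0.404 and Dbp from −0.165 to 0.134. For mTR WT against mTERT WT they ran for Clock from −0.075 to 0.241, Per1 from −0.168 to 0.601, Nr1d1 from −1.24 to 0.433, Nr1d2 from −0.517 to 0.131 and Dbp from −0.258 to 0.0404. For number 1 they ran for Nr1d1 from −0.947 to 0.412. For number 2 against 3 they ran for Arntl from −0.105 to 0.0676, Clock from −0.00258 to 0.0694 and Nr1d2 from −0.163 to 0.0724.

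The probe with the second highest mean was not used, since each clock gene had 1 probe set. Signal near background limits Dbp, Per2, Per3, Ciart and Usp2.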
